A study of Mus musculus with 6 samples.

Results

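The 10 genes described here belong to the signalling pathways of acute inflammation: the acute-phase products *Lcn2* and *Lrg1*, the interleukin-1 receptor *Il1r1*, the prostaglandin enzymes *Ptgs2* and *Ptges*, the interleukin-6 family genes *Osmr*, *Il6st*, and *Stat3*, and the tumor necrosis factor (TNF) pathway genes *Tnfrsf1a* and *Nfkbia*. They were chosen from earlier results of these same libraries, in which they stood out in venous endothelial cells, and were matched by symbol to 10 of the 32287 genes listed. Their levels along the vessel tree are therefore given as a description with no test, and tests were made only between genotypes. The series asked whether brain vessels respond to amyloid. It holds 3 WT mice (C57BL/6J) and 3 ArcSwe mice (*TgApp*ArcSwe, genotype label AppArcSwe, condition label AD), a transgenic model of Alzheimer's disease in which amyloid is deposited in the parenchyma and in vessel walls. All 6 mice were untreated males aged 12 months. The promoter of the transgene is not given in the sources used here. Microvascular fragments of a cerebral hemisphere were captured with beads against CD31, digested to single cells, and sequenced as 1 library per mouse with 10x Genomics 3′ chemistry.

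In the brain, veins and venules are the segment where circulating leukocytes attach and cross, and their endothelium is known to respond readily to cytokines. Interleukin-1 binds *Il1r1* together with its accessory chain *Il1rap*, and TNF binds *Tnfrsf1a*, and both receptors activate NF-κB, which induces its own inhibitor *Nfkbia*. Interleukin-6 family ligands signal through *Il6st* (gp130), paired with *Osmr* for oncostatin M, and activate the transcription factor *Stat3*. *Ptgs2* (cyclooxygenase) and *Ptges* (microsomal prostaglandin E synthase) act in sequence to make prostaglandin E, the mediator by which brain endothelium contributes to fever. *Lcn2* (lipocalin) and *Lrg1* (leucine-rich glycoprotein) are secreted proteins that liver and other tissues produce during the acute-phase response.

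Promoter windows are shown for the 5 genes whose level differed most between veins and capillaries or that read out NF-κB, so that binding motifs of the factors named above can be read beside the levels. Each runs 5′ to 3′ on the strand of the gene, from 250 bases before to 50 bases after the RefSeq start (build GRCm38.p6), and capitals mark a match to 1 of 5 motifs searched on both strands: C/EBP (TTGCNNAA), STAT (TTCNNNGAA), AP-1 (TGANTCA), the kappa B consensus, and TATAAA.
*Lcn2*, chr2:32387690-32387989, minus strand: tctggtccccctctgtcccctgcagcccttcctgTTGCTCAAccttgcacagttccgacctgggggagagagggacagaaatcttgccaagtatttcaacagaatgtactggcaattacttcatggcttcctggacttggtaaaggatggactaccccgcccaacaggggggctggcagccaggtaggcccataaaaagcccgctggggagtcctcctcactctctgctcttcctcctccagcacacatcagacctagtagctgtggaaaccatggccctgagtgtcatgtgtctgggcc
*Lrg1*, chr17:56121897-56122196, minus strand: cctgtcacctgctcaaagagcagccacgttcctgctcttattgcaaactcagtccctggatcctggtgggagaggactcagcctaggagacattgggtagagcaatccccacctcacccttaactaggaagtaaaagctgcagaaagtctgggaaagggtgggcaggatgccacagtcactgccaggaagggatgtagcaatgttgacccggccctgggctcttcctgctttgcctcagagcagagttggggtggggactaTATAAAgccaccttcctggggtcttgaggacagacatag
*Il1r1*, chr1:40224830-40225129, plus strand: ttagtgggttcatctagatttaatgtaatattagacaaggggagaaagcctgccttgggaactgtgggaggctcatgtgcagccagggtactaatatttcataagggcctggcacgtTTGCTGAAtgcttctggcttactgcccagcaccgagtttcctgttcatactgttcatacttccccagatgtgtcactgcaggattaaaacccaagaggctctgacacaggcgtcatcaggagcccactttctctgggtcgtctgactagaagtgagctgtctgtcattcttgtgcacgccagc
*Ptgs2*, chr1:150099781-150100080, plus strand: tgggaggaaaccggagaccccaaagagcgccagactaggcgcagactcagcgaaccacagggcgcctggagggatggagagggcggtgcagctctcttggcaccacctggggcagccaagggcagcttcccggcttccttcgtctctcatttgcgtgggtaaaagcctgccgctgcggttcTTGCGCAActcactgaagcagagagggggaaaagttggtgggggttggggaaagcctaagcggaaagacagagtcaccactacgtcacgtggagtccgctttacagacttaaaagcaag
*Nfkbia*, chr12:55492598-55492897, minus strand: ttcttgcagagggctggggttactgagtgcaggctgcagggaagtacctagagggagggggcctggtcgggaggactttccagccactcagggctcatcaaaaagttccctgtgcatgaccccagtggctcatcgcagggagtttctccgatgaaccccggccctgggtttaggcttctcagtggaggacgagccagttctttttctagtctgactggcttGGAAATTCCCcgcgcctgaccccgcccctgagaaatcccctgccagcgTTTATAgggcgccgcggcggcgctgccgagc
A C/EBP match lay 216 bases before the start of *Lcn2*, 133 bases before that of *Il1r1*, and 69 bases before that of *Ptgs2*, against a share of 10.8% of all 32851 promoter windows with such a match. The kappa B match of *Nfkbia* began 29 bases before its start, and 8.46% of all windows held one. *Il1r1* has a second window, with a kappa B match 232 bases before its start, *Tnfrsf1a* has a STAT match (8.30% of windows) 244 bases before its start, and *Osmr* an AP-1 match (7.81% of windows) 4 bases after its start. A TATAAA match lay 12 bases after the start of *Lrg1* and, on the other strand, 20 bases after that of *Nfkbia*, and 13.6% of windows held one. No motif was found in the windows of *Ptges*, *Stat3*, and *Il6st*. These are matches of letters and not measured binding.

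Of 49059 deposited cells, 44112 passed the filter. The libraries held 26436229 to 59161203 UMIs (unique molecular identifiers, each counting 1 captured RNA molecule), at a median of 2826 to 6133 per cell, and pairs of libraries shared 4 to 42 cell barcodes. A level is given as CPM, the UMIs of a gene per 1000000 UMIs of all cells of a class in a mouse. The 10 genes and the other genes of their pathways were removed before cells were clustered and were not used to name classes. Endothelial cells of the blood-brain barrier comprised 24038 cells, of which 3670 were venous-like, 8836 capillary-like, and 5923 arterial-like, and 5609 were given no zone. Within the venous-like cells, 964 formed a subcluster with high *Ackr1*, a chemokine receptor of veins, and are called vein-like here (46 to 278 cells per mouse), and 2706 are called other venous-like. *Ackr1* averaged 157 CPM in vein-like and at most 0.936 CPM in the other 3 barrier zones, and the venous transcription factor *Nr2f2* averaged 419 CPM in vein-like, 209 in other venous-like, 48.9 in capillary-like, and 9.33 in arterial-like cells. WT replicate 3 stood apart by its low immediate early genes (10910 CPM summed over 10 genes in vein-like cells, against 25250 to 38950 in the other 5 mice). Capillary-like cells came partly from different subclusters in different mice: 1115 of 2247 cells of a subcluster were from WT replicate 3, and 874 of 1175 and 665 of 759 cells of 2 others were from ArcSwe replicate 3.

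All 10 genes were higher in venous-like than in capillary-like cells in each of the 6 mice, with a median log2 difference of 0.98 on the log2(CPM + 10) scale, against -0.048 over all 8514 genes with a mean of at least 10 CPM. Such a difference in every mouse was seen for 968 of those genes (11.4%). In vein-like cells the count was again 10 of 10, with a median of 1.455, against 942 of 8506 genes (11.1%) and a median of -0.12. Since the genes were chosen for this pattern, nothing is read from these counts, and the following values describe how the genes differed in size and in where else they occurred. Differences of single genes are log2 ratios of CPM within a mouse, with no constant added.

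*Lcn2* (chromosome 2, 32384633 to 32388252, minus strand) marked the vein-like cells most sharply together with *Lrg1*. Its level in vein-like cells was 192, 146, and 226 CPM in WT replicates 1 to 3 and 140, 241, and 365 CPM in ArcSwe replicates 1 to 3. In other venous-like cells of the same mice it was 15.01, 21.9, and 19.6 CPM and 19.3, 5.51, and 27.2 CPM. The ranges of these classes did not overlap, and both venous classes lay above the 0.586 to 4.70 CPM of capillary-like and the 0.350 to 4.57 CPM of arterial-like cells. Within mice, the log2 difference between vein-like and capillary-like cells was 6.75 ± 1.03 (SD, n = 6 mice), and with the UMIs of all mice pooled the level was 88.5-fold higher (exact 95% interval 71.2 to 111, which covers counting error only). Vein-like cells exceeded other venous-like cells by 3.67 ± 0.97 on the log2 scale (SD, n = 6). In the 6 classes outside the barrier zones (fenestrated endothelial cells, pericytes, smooth muscle cells, microglia, B cells, and T or NK cells), mean levels lay at 3.89 CPM or below, and all neighbours in that order overlapped.

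*Lrg1* (chromosome 17, 56119678 to 56122001, minus strand) was narrower still in its distribution among the barrier zones, though not among all classes. Its level in vein-like cells was 106, 120, and 231 CPM in the WT mice and 204, 84.9, and 200 CPM in the ArcSwe mice. In other venous-like cells it was 1.79, 3.51, and 4.08 CPM and 4.48, 0.501, and 7.92 CPM, close to the mean of 1.32 CPM in arterial-like and 0.616 CPM in capillary-like cells. The log2 difference between vein-like and capillary-like cells was at least 7.87 ± 0.94 (SD, n = 6), since ArcSwe replicate 2 had no *Lrg1* UMI in capillary-like cells and was set to a floor of 3 UMIs. Pooled over mice, the vein-like level was 260-fold that of capillary-like cells (exact 95% interval 172 to 412). Fenestrated endothelial cells, which lie outside the barrier, were next to the vein-like cells with 24.5 ± 4.69 CPM (SD, n = 6), without overlap on either side. *Lcn2* was nearly absent from those cells, with 2 UMIs in 636 cells, so the pair of acute-phase genes shared the veins and not the fenestrated vessels.

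**Figure D1:**
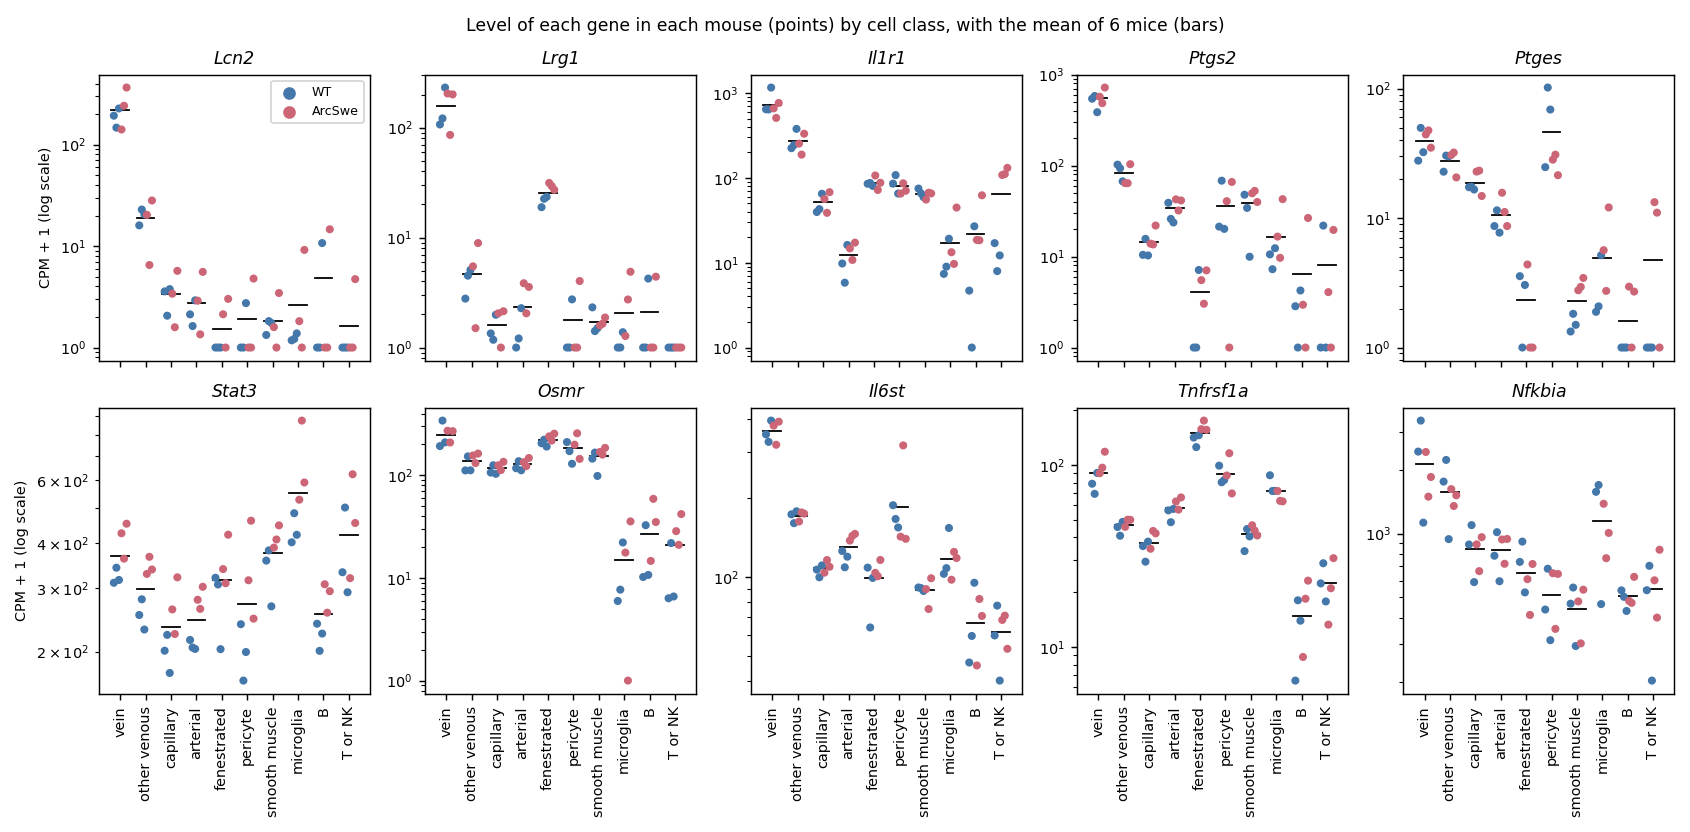
Level of each of the 10 genes in each mouse (points, WT in blue and ArcSwe in red) by cell class, as CPM + 1 on log axes that differ between panels, with bars at the mean of 6 mice. *Lcn2*, *Lrg1*, *Il1r1*, and *Ptgs2* separate the vein class (Ackr1-high vein-like cells) from every other class, *Tnfrsf1a* is highest in fenestrated cells, and *Stat3* has its highest mean in microglia.

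*Il1r1* (chromosome 1, 40225080 to 40317257, plus strand), which carries the interleukin-1 signal into the cell, was lower in steps from veins to arteries. It measured 644, 641, and 1163 CPM in vein-like cells of the WT mice and 660, 509, and 765 CPM in those of the ArcSwe mice. In other venous-like cells the level was 187 to 378 CPM, in capillary-like cells 37.8 to 66.9 CPM, and in arterial-like cells 4.82 to 16.3 CPM, so that none of the 4 zones overlapped with another. The log2 difference from capillary-like cells was 3.84 ± 0.27 for vein-like and 2.41 ± 0.16 for other venous-like cells, and for arterial-like cells it was -2.22 ± 0.44 (SD, n = 6 for each). Fenestrated cells (85.65 CPM), pericytes (79.3 CPM), and smooth muscle cells (63.7 CPM) followed the venous classes, with overlap among them. WT replicate 3 had the highest *Il1r1* level of the 6 mice in vein-like and in other venous-like cells.

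*Ptgs2* (chromosome 1, 150100031 to 150108227, plus strand) had the same order at the venous end and a different one at the arterial end. In vein-like cells it measured 542, 582, and 385 CPM in the WT mice and 570, 484.5, and 720 CPM in the ArcSwe mice, against 63.1 to 103 CPM in other venous-like and 9.29 to 20.9 CPM in capillary-like cells, with no overlap between these classes. Here arterial-like cells exceeded capillary-like cells in all 6 mice, by 1.33 ± 0.46 on the log2 scale (SD, n = 6), at 22.7 to 41.55 CPM. The vein-like minus capillary-like log2 difference was 5.39 ± 0.25, the pooled fold was 41.1 (exact 95% interval 37.3 to 45.4), and vein-like cells exceeded other venous-like cells by 2.76 ± 0.28 (SD, n = 6).

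*Ptges* (chromosome 2, 30889471 to 30929863, minus strand), which converts the product of *Ptgs2*, followed the veins only weakly. Levels were 26.8 to 48.7 CPM in vein-like, 19.6 to 31.1 CPM in other venous-like, 13.8 to 22.3 CPM in capillary-like, and 6.71 to 14.7 CPM in arterial-like cells, and each zone overlapped with the next. Within each of the 6 mice the order was nevertheless vein-like, other venous-like, capillary-like, with log2 differences from capillary-like cells of 1.105 ± 0.29 and 0.60 ± 0.21 (SD, n = 6). Pericytes had the highest mean, 45.0 ± 32.4 CPM (SD, n = 6), resting on 124 UMIs in all and on the 101 and 67.9 CPM of WT replicates 2 and 3, with the other 4 mice at 20.4 to 29.9 CPM. *Ptges* was therefore highest in veins among the barrier zones but not among all classes.

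The steps before and after these enzymes were read from the list of prostaglandin genes. *Pla2g4a*, the phospholipase that releases arachidonic acid, had a mean level of 322 CPM in vein-like and 64.0 CPM in capillary-like cells, a log2 difference of 2.325 ± 0.17 (SD, n = 6). *Ptgs1*, the constitutive cyclooxygenase, was at 24.6 CPM in vein-like and 5.62 CPM in capillary-like cells but at 298.5 CPM in microglia and 189 CPM in fenestrated cells. *Slco2a1*, the prostaglandin transporter, was at 27.2 CPM in vein-like, 2.425 CPM in capillary-like, and 86.7 CPM in fenestrated cells. *Hpgd*, which degrades prostaglandins, was at 348 CPM in microglia and at 6.90 CPM or less in the 4 barrier zones. The receptors *Ptger1*, *Ptger2*, *Ptger3*, and *Ptger4* had means of 2.405 CPM or less in vein-like cells. Of the 6 list members with a mean of at least 10 CPM, 3 were higher in vein-like than in capillary-like cells in all 6 mice and 0 were lower in all 6. The shares over all 8506 genes were 11.1% higher and 26.5% lower.

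Among the interleukin-6 family genes, *Il6st* (chromosome 13, 112464070 to 112510086, plus strand) separated the veins best. Its level in vein-like cells was 348, 326, and 393 CPM in the WT mice and 376, 318, and 389 CPM in the ArcSwe mice, and the highest value elsewhere was 316 CPM, in the pericytes of ArcSwe replicate 2. Other venous-like cells lay at 159 to 177 CPM, above the 98.6 to 115 CPM of capillary-like cells and the 108 to 145 CPM of arterial-like cells. Mouse to mouse, the difference of *Il6st* between other venous-like and capillary-like cells had the smallest spread of the 10 genes, at 0.67 ± 0.036 above capillary-like cells on the log2 scale, and in vein-like cells the difference was 1.75 ± 0.15 (SD, n = 6).

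*Osmr* (chromosome 15, 6813577 to 6874969, minus strand) was at 192 to 341 CPM in vein-like cells and at 111 to 162, 103 to 135, and 111 to 147 CPM in other venous-like, capillary-like, and arterial-like cells. The vein-like range overlapped with those of fenestrated cells (190 to 254 CPM) and pericytes (129 to 256 CPM). Only lymphocytes and microglia had low levels, with means of 14.0 to 26.1 CPM. Outside the veins *Osmr* thus varied little along the barrier, with other venous-like cells 0.215 ± 0.10 and arterial-like cells 0.12 ± 0.015 above capillary-like cells on the log2 scale, and vein-like cells 1.06 ± 0.21 above them (SD, n = 6).

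*Stat3* (chromosome 11, 100885098 to 100939540, minus strand) was found in every class, with class means from 233 to 550 CPM. It measured 310, 341, and 315 CPM in vein-like cells of the WT mice and 425, 361, and 452 CPM in those of the ArcSwe mice. Other venous-like cells, at 229 to 366 CPM, and capillary-like cells, at 173 to 321 CPM, overlapped with these values, and arterial-like cells, at 202 to 302 CPM, lay below them. Microglia had the highest mean, 550 ± 174 CPM (SD, n = 6), followed by T or NK cells (420 CPM) and smooth muscle cells (375 CPM). Vein-like cells exceeded capillary-like cells by 0.67 ± 0.12 and other venous-like cells by 0.31 ± 0.17 on the log2 scale (SD, n = 6), the latter in 5 of 6 mice. Among all classes the data go against calling *Stat3* a gene of veins.

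The ligands of these receptors lay outside the endothelium. *Il6* had its highest mean in pericytes (49.3 CPM) and was at 0.484 CPM or less in the 4 barrier zones, *Osm* was at 63.0 CPM in microglia, and *Lif* was at 18.2 CPM in T or NK cells. *Il6ra*, the binding chain for interleukin-6, was at 124 CPM in vein-like, 72.8 CPM in capillary-like, and 317 CPM in microglia, and *Lifr* was at 142 CPM in vein-like and 218 CPM in fenestrated cells. *Socs3*, the feedback inhibitor induced by *Stat3*, was at 666 CPM in vein-like, 267 CPM in other venous-like, and 215 CPM in capillary-like cells, and higher still in smooth muscle cells (937 CPM). Of 13 measured genes of the interleukin-6 list, 7 were higher in vein-like than in capillary-like cells in all 6 mice and 1 was lower. Over all 8506 genes, 11.1% were higher and 26.5% lower.

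*Tnfrsf1a* (chromosome 6, 125349362 to 125362484, plus strand) was lowest in capillary-like cells among the barrier zones and higher toward both ends of the vessel tree. Levels were 68.5 to 117.5 CPM in vein-like, 39.9 to 49.1 CPM in other venous-like, 28.4 to 42.5 CPM in capillary-like, and 47.5 to 65.4 CPM in arterial-like cells. Arterial-like cells exceeded capillary-like cells by 0.66 ± 0.16 on the log2 scale (SD, n = 6), and the whole venous-like class did not differ from the arterial-like class beyond its spread (0.0068 ± 0.12, SD, n = 6, higher in 3 of 6 mice). Vein-like cells exceeded capillary-like cells by 1.30 ± 0.14 (SD, n = 6). Fenestrated cells had the highest level, 125 to 175 CPM, with no overlap with any other class, so that for this receptor too the veins were not the highest site.

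*Nfkbia* (chromosome 12, 55489410 to 55492647, minus strand) was at 2434, 3408, and 1125 CPM in vein-like cells of the WT mice and at 2424, 1492, and 1847 CPM in those of the ArcSwe mice. Other venous-like cells, at 940.5 to 2223 CPM, overlapped with this range, and capillary-like cells lay at 589 to 1095 CPM. The within-mouse differences were steadier than the levels, at 1.26 ± 0.29 between vein-like and capillary-like cells and 0.39 ± 0.19 between vein-like and other venous-like cells on the log2 scale (SD, n = 6). WT replicate 3 was the lowest and WT replicate 2 the highest of the 6 mice in each of the 4 barrier zones. The order of the mice was thus the same at its ends in every zone, although the zones themselves overlapped.

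Other genes of the interleukin-1, TNF, and NF-κB lists did not all share the venous pattern. The ligands were microglial, with mean levels of 752 CPM for *Il1a*, 105 CPM for *Il1b*, and 497 CPM for *Tnf* in microglia against 14.4 CPM or less in every endothelial class. *Il1rap*, which *Il1r1* needs for signalling, was at 18.7 CPM in vein-like, 19.9 CPM in other venous-like, and 19.0 CPM in capillary-like cells, and so did not follow its partner. *Il1r2*, the decoy receptor, was at 2.03 CPM in vein-like cells. *Tnfrsf1b* was at 33.1 CPM in vein-like and 15.4 CPM in capillary-like cells. Among targets and regulators, *Nfkbiz* was at 613 CPM in vein-like and 202 CPM in capillary-like cells, *Tnfaip3* at 90.1 and 37.9 CPM, and *Nfkb1* at 167 and 133 CPM. Of the list members measured, 2 of 11 (interleukin-1), 4 of 9 (TNF), and 6 of 11 (NF-κB) were higher in vein-like than in capillary-like cells in all 6 mice, beside 11.1% of all genes, and 2, 0, and 2 were lower, beside 2253 of 8506 genes (26.5%).

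The acute-phase list, which holds serum amyloid genes, haptoglobin, fibrinogen chains, and their regulators, was mostly at low levels in these vessels. Only 5 of its 18 genes reached a mean of 10 CPM over vein-like and capillary-like cells. Of the 5, 4 were higher in vein-like cells in all 6 mice, beside 11.1% of all 8506 genes. The transcription factors *Cebpd* and *Cebpb*, which belong to this list and drive acute-phase genes in liver, were at 459 and 125.5 CPM in vein-like and at 135 and 54.05 CPM in capillary-like cells, log2 differences of 1.77 ± 0.29 and 1.23 ± 0.22 (SD, n = 6). *Slc22a17*, a receptor of lipocalin, was at 6.79 CPM in vein-like cells and 23.5 CPM in microglia.

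**Figure D2:**
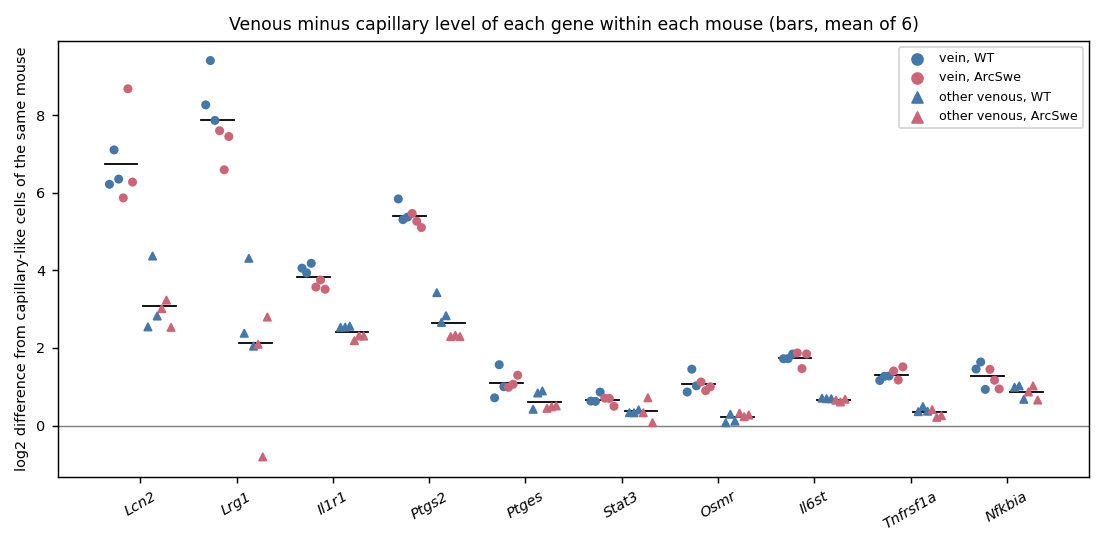
Log2 difference of each gene from capillary-like cells of the same mouse (vertical axis), for vein-like cells (circles) and other venous-like cells (triangles), WT in blue and ArcSwe in red, with bars at the mean of 6 mice. Means for vein-like cells run from 7.87 for *Lrg1* and 6.75 for *Lcn2* down to 0.67 for *Stat3*. ArcSwe replicate 2, without a capillary-like *Lrg1* UMI, is drawn at the floor of 3 UMIs.

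Within the 964 vein-like cells the genes differed in how many cells carried them. A UMI was found for *Nfkbia* in 895 cells, *Il1r1* in 846, *Il6st* in 724, *Stat3* in 700, *Ptgs2* in 597, *Osmr* in 573, *Lcn2* in 377, *Tnfrsf1a* in 365, *Lrg1* in 336, and *Ptges* in 174. *Lcn2* was concentrated: the 97 cells with the most *Lcn2* held 66.3% of its 1361 UMIs, and 1 cell held 74, whereas the corresponding share was 34.8% for *Il1r1*. For *Lrg1* the top cells held 67.1% of 1069 UMIs, and for *Ptgs2* 51.2% of 3385. Of *Lcn2*, *Lrg1*, *Il1r1*, and *Ptgs2*, all 4 were found in 145 vein-like cells, 3 in 244, 2 in 312, 1 in 220, and none in 43.

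These shares move with depth, so they were repeated with each cell thinned to 1000 UMIs (950 vein-like cells, 14 shallower cells left out). *Lcn2* was then found in 13.2%, *Lrg1* in 12.6%, *Il1r1* in 50.4%, and *Ptgs2* in 29.2% of vein-like cells. B cells, which should lack these genes, were taken as a background of free RNA in the droplets or of doublets, which were not told apart. They had *Lcn2* in 0 of 656 thinned cells, which allows a share of up to 0.457%. *Lrg1* was in 0.152%, *Il1r1* in 0.762%, and *Ptgs2* in 0.305% of them. Without thinning the shares in B cells were 0.704%, 0.423%, 2.82%, and 0.986%, at a median depth of 2423 to 3828 UMIs per cell and mouse, against 3986 to 7484 in vein-like cells. *Stat3* and *Nfkbia* were found in 20.6% and 35.5% of thinned B cells, which express both genes.

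**Figure D3:**
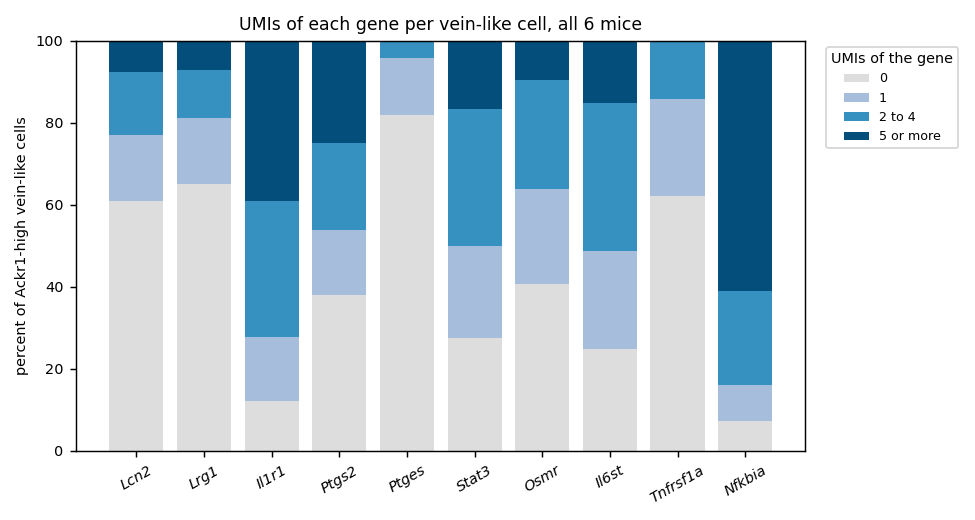
Percent of the 964 vein-like cells of all mice (vertical axis) with 0, 1, 2 to 4, or 5 or more UMIs of each gene. *Nfkbia* and *Il1r1* fill most cells, with 5 or more UMIs in 588 and 376 cells, while *Lcn2* and *Lrg1* are at 0 in 587 and 628 cells and reach 5 or more in 73 and 68.

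The share of each gene's UMIs that fell in veins summarizes the distribution. Vein-like cells held 3.04% of all UMIs of the kept cells but 50.8% of *Lrg1*, 36.2% of *Lcn2*, 31.5% of *Ptgs2*, and 24.95% of *Il1r1*. For *Il6st*, *Ptges*, *Osmr*, *Nfkbia*, *Tnfrsf1a*, and *Stat3* the shares were 8.74%, 8.70%, 6.29%, 6.20%, 5.23%, and 3.71%. Unnamed cells (1234) held 26.7% of *Lcn2* and 1.8% of *Lrg1*, beside 4.43% of all UMIs. Most of this *Lcn2* lay in a cluster described under Other observations. Endothelial cells left out because they carried a UMI of the microglial genes *Cx3cr1* or *Aif1* (5553 cells) held another 21.1% of *Lcn2* and 33.3% of *Lrg1*, beside 13.65% of all UMIs. With those cells kept, the venous-like minus capillary-like log2 difference of *Lcn2* was 4.29 in place of 5.09. Markers of neutrophils, which store lipocalin, summed to 0 to 8.45 CPM over 7 genes in vein-like cells, with *Retnlg* and *Mmp8* at 0, under the 140 CPM or more of *Lcn2* there. Markers of microglia summed to 106, 122, and 323 CPM over 7 genes in vein-like cells of the WT mice and 201, 156, and 287 CPM in those of the ArcSwe mice (*Cx3cr1* and *Aif1* at 0 by the filter), and those of choroid plexus epithelium to 50.2 to 632 CPM over 4 genes, each highest in WT replicate 3. Their part in the levels was not tested.

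Immediate early genes, which are induced by many stimuli including the handling of tissue, were higher in the venous zones than in capillaries. The summed level of 10 of them was 33020, 38950, and 10910 CPM in vein-like cells of the WT mice and 34840, 30240, and 25250 CPM in those of the ArcSwe mice, and 20550, 23240, and 9217 CPM and 23560, 18340, and 23530 CPM in capillary-like cells. In vein-like cells *Nfkbia* was lowest in the mouse with the lowest immediate early level and highest in the mouse with the highest, and in capillary-like cells it was again lowest in WT replicate 3. In the vein-like cells of WT replicate 3, where immediate early genes were lowest, *Lrg1* (231 CPM) and *Il1r1* (1163 CPM) were the highest of the 6 mice and *Ptgs2* (385 CPM) was the lowest.

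Other venous-like cells divided mainly into a subcluster high in immediate early genes (1446 cells, 37240 CPM) and a subcluster low in them (1227 cells, 7153 CPM). The leading genes of the former included *Icam1*, *Cxcl2*, *Cxcl1*, and *Ier3*, and *Cyp2e1*, *Sdk1*, *Nr2f2*, and *Wnt5a* were among those of both. *Nfkbia* was at 2071 CPM in the former and 657 CPM in the latter, *Stat3* at 363 and 180 CPM, and *Ptgs2* at 94.7 and 50.75 CPM, whereas *Il1r1* was at 211 and 383 CPM and *Lcn2* at 14.4 and 24.85 CPM. These directions held in each of the 6 mice for *Nfkbia*, *Stat3*, *Ptgs2*, and *Il1r1*, and in 5 of 6 for *Lcn2*. Without the former, chosen for removal after seeing the data, the venous-like minus capillary-like log2 difference was 0.70 in place of 0.98 for *Nfkbia* and 0.26 in place of 0.46 for *Stat3*, but 5.91 in place of 5.09 for *Lcn2* and 3.425 in place of 2.925 for *Il1r1*. The removal was made in venous-like cells only, so the zones were not treated alike. Capillary-like cells kept subclusters with 36400 and 37760 CPM of immediate early genes, with *Nfkbia* at 1228 and 1310 CPM and *Stat3* at 310 and 380 CPM. The part of the immediate early genes in these levels was not tested.

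**Figure D4:**
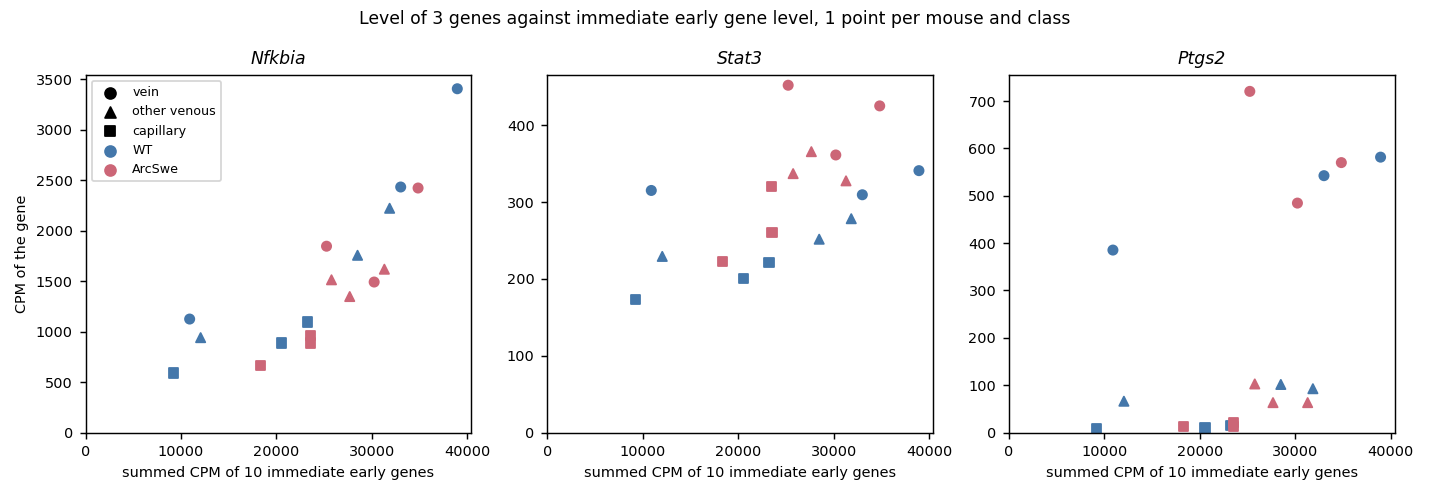
CPM of *Nfkbia*, *Stat3*, and *Ptgs2* (vertical axes, from 0) against the summed CPM of 10 immediate early genes (horizontal axes), 1 point per mouse and class, with vein-like cells as circles, other venous-like cells as triangles, capillary-like cells as squares, WT in blue, and ArcSwe in red. The leftmost point of each class is WT replicate 3. *Nfkbia* is lowest in that mouse within each class, while *Ptgs2* separates the vein-like cells (385 CPM or more) from the other classes at any immediate early level.

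The genotypes were then compared within each class, on counts summed per mouse (edgeR quasi-likelihood test, Benjamini-Hochberg adjustment over all genes tested). None of the 10 genes was called in venous-like cells, where 0 of 10719 genes (0%) had an adjusted p under 0.05, 450 had an unadjusted p under 0.05, DESeq2 called 3, and the replicate block called 1. *Lcn2* had a log2 fold change of 0.355 ± 0.41 (SE, adjusted p = 1 in edgeR), *Lrg1* of 0.21 ± 0.51, *Ptgs2* of 0.19 ± 0.27, and *Il1r1* of -0.21 ± 0.29. The TMM-scaled levels of *Lcn2* in venous-like cells were 64.4, 59.4, and 96.3 CPM in the WT mice and 59.6, 48.9, and 171 CPM in the ArcSwe mice, so that the positive value rested on ArcSwe replicate 3, and without that mouse the fold change was -0.42. At this number of mice, differences of the size of these errors were not detectable. In vein-like cells alone 0 of 8515 genes (0%) were called (334 with an unadjusted p under 0.05, 0 in DESeq2, and 1 with the replicate block), with *Lcn2* at 0.41 ± 0.27 and *Lrg1* at 0.17 ± 0.29.

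*Stat3* stood out among the 10 in venous-like cells by its order and not by a call. Its TMM-scaled level there was 302, 350, and 285 CPM in the WT mice and 416, 426, and 438 CPM in the ArcSwe mice, with no overlap. The log2 fold change was 0.45 ± 0.11 (SE, unadjusted p = 0.00299 and adjusted p = 1 in edgeR). Genotypes without overlap and higher in ArcSwe were seen for 498 of 10719 genes (4.65%) in this class, and *Stat3* was the only one of the 10 among them. Within the class, unscaled *Stat3* overlapped between genotypes in the subcluster low in immediate early genes (143, 193, and 208 CPM in WT, 159, 179, and 182 CPM in ArcSwe). It did not overlap in the subcluster high in them (301, 305, and 266 CPM against 385, 440, and 431 CPM). WT replicate 3 had 104 cells in the latter and 328 in the former, and the part of this split was not tested. In vein-like cells alone *Stat3* (0.385 ± 0.166, SE, unadjusted p = 0.0357 and adjusted p = 0.999 in edgeR) and *Tnfrsf1a* (0.375 ± 0.177, SE) were without overlap and higher. So were 375 of 8515 genes there.

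In the other classes of the same mice the *Stat3* fold change was 0.47 ± 0.16 (SE) in capillary-like, 0.47 ± 0.10 in arterial-like, 0.35 ± 0.16 in mural, and 0.69 ± 0.28 in microglia-like cells, and none of these was called. Because the classes come from the same 6 libraries, they are not independent of each other. The arterial-like value had an unadjusted p of 0.00092 and an adjusted p of 0.493 in edgeR, which was 0.0333 in DESeq2 and 0.0346 without a filter on low counts, and over all 14 alternatives the adjusted p ran from 0.0333 to 1 and the fold change from 0.36 to 0.53. Immediate early genes had positive fold changes for 10 of 10 in venous-like, capillary-like, and arterial-like cells (medians of 0.21, 0.35, and 0.36, 0 called). The count was 10 of 10 in mural (median 0.092), 7 of 10 in vein-like (median 0.067), and 1 of 10 in microglia-like cells (median -0.30). Their part in the *Stat3* values was not tested.

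In arterial-like cells 3 of the 9 genes tested did not overlap between genotypes and were higher in ArcSwe, against 610 of 11450 genes (5.33%), and 0 of 11450 genes (0%) were called (726 with an unadjusted p under 0.05, 23 in DESeq2, and 9 with the replicate block, none of the last being one of the 10). These were *Stat3*, *Il6st* (0.31 ± 0.093, SE, unadjusted p = 0.00836 and adjusted p = 0.65 in edgeR), and *Tnfrsf1a* (0.24 ± 0.11, SE, adjusted p = 0.775 in edgeR). In capillary-like cells 0 of 9 were without overlap, against 530 of 11495 genes (4.61%), and 0 of 11495 (0%) were called (536 with an unadjusted p under 0.05, 6 in DESeq2, and 2 with the replicate block). *Lrg1* did not pass the filter on low counts in capillary-like, arterial-like, mural, and microglia-like cells, and *Lcn2* in mural and microglia-like cells.

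In mural cells 0 of 11425 genes (0%) were called (294 with an unadjusted p under 0.05 and 0 in DESeq2), and the 8 genes tested lay between -0.55 ± 0.50 for *Ptges* and 0.61 ± 0.44 for *Ptgs2* (SE). *Stat3* and *Osmr* were without overlap and higher in ArcSwe in these cells, as were 465 of 11425 genes. In microglia-like cells 4 of 11563 genes (0.0346%) were called, 94 in DESeq2 and 65 with the replicate block, and none of the 8 genes tested was called by any of these. *Ptges* (1.99 ± 0.69, SE) and *Ptgs2* (1.51 ± 0.49, SE) had the largest fold changes there, at TMM-scaled levels of 0.988 to 12.4 and 7.03 to 46.6 CPM, and in both the highest value was that of ArcSwe replicate 3. The ligands *Tnf* (1.27 ± 0.345, adjusted p = 0.365), *Il1b* (1.90 ± 0.675, adjusted p = 0.569), and *Il6* (1.13 ± 0.375, adjusted p = 0.516) and the prostaglandin receptor *Ptger4* (2.31 ± 0.40, adjusted p = 0.146) were higher in each ArcSwe than in each WT mouse in microglia-like cells and were not called in edgeR, and 785 of 11563 genes (6.79%) were without overlap in this direction. *Il1a* (0.54 ± 0.63) and *Osm* (0.34 ± 0.43) overlapped between genotypes (SE), and *Ptger3* was lower in each ArcSwe mouse (-1.62 ± 0.47, SE, adjusted p = 0.422 in edgeR), as were 834 of 11563 genes (7.21%). Depth differed between mice in this class, with a median of 5950, 5350.5, and 1241 UMIs per cell in WT replicates 1 to 3. The ArcSwe replicates had 1597, 2003, and 1172, with 225 cells in ArcSwe replicate 2. Mitochondrial counts were 0.74%, 0.81%, and 3.14% in the WT mice and 1.80%, 2.61%, and 3.42% in the ArcSwe mice. The part of depth and mitochondrial counts in these fold changes was not tested.

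**Figure D5:**
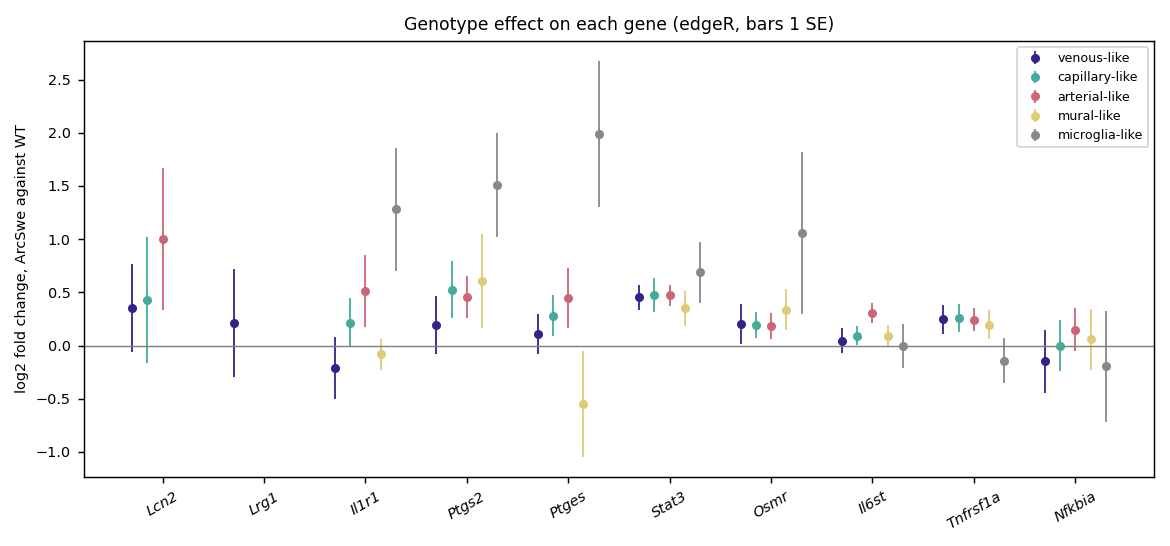
Log2 fold change, ArcSwe against WT, of each gene (vertical axis, points with bars of 1 SE from edgeR, n = 3 mice per genotype) in 5 cell classes by color; a gene without a point was not tested in that class. *Stat3* lies above 0 in all 5 classes, at 0.35 to 0.69, and no value shown was called.

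Whether the genotype effect differed between venous-like and capillary-like cells was examined in a single fit of both zones that held each mouse as a block. This interaction was called for 7 of 11599 genes (0.0604%), of which none was one of the 10 and *Tnfaip3*, the deubiquitinase that restrains NF-κB, was from the TNF list. *Il1r1* had the lowest p of the 10, with an interaction of -0.39 ± 0.10 (SE, unadjusted p = 0.00057 and adjusted p = 0.311 in edgeR), an adjusted p of 0.033 without a filter on low counts, and a range from -0.60 to -0.28 over 12 alternatives (adjusted p 0.033 to 0.977). Its genotype fold change was -0.21 ± 0.29 in venous-like and 0.215 ± 0.23 in capillary-like cells (SE). *Il1r1* also differed between capillary-like subclusters drawn unevenly from the mice. It was at 87.25 CPM in that with 1115 of 2247 cells from WT replicate 3. In those with 874 of 1175 and 665 of 759 cells from ArcSwe replicate 3 it was at 97.8 and 23.3 CPM. The part of these subclusters in the interaction was not tested. For the other 9 genes the interaction lay between -0.465 ± 0.54 for *Lrg1* and 0.030 ± 0.093 for *Osmr* (SE), with adjusted p of 0.913 or more in edgeR.

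The venous-like share of barrier endothelial cells had a mean of 14.7% ± 1.74 for WT and 16.6% ± 3.45 for ArcSwe (SD, n = 3 each, p = 0.6 in an exact two-sided permutation test, which cannot go below 0.1 at this number of mice). The vein-like share was 3.73% ± 1.39 and 3.89% ± 0.88 (SD, n = 3 each, p = 0.9 in the same exact test). The share of venous-like cells with a *Stat3* UMI, at 1000 UMIs per cell, was 20.7% ± 1.58 in the WT and 27.05% ± 0.376 with ArcSwe (SD, n = 3 each, p = 0.1 in the exact test, adjusted p over 10 genes of 1), without overlap, and 21.4% and 20.6% in B cells. At 2000 UMIs per cell it was 36.5% and 46.1% in venous-like and 31.8% and 46.1% in B cells (p = 0.1 for each in the exact test, n = 3 each), and without thinning 65.6% and 71.2% (p = 0.4) and 42.2% and 57.0% (p = 0.1). At both of these depths the genotype difference was larger in B cells than in venous-like cells, and the gap between the classes was not tested. For *Lcn2* it was 4.42% ± 1.35 and 4.47% ± 3.57 (SD, n = 3 each, p = 1 in the exact test).

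For each gene, the 3 genes whose level followed it most closely were listed over 49 sums of 9 classes and 6 mice, among 9798 genes with a mean of at least 10 CPM, as a description in which sums of a library share depth and free RNA. *Lcn2* was followed most closely by *Gm5127* (Pearson's r = 0.93), *Nexmif* (0.90), and *Cyp2e1* (0.88), and *Lrg1* by *Nrp2* (0.79), *Pcdh7* (0.78), and *Sh3bgrl2* (0.78). *Il1r1* was followed by *Nckap5* (0.85), *Ndufa8* (0.78), and *Serpinb9* (0.74), and *Ptgs2* by *Myof* (0.84), *Pknox2* (0.82), and *Vcam1* (0.77), an adhesion molecule of activated endothelium. *Ptges* was followed by *Apod* (0.90), *Cdh2* (0.88), and *Adgrl3* (0.86). For *Nfkbia* these genes were *Icam1* (0.79), *Ier3* (0.79), and *Mcl1* (0.79), and for *Stat3* they were *Rabgef1* (0.83), *Ifrd1* (0.82), and *Nfkbiz* (0.80). *Osmr* was followed by *Selenom* (0.96), *Rhoc* (0.95), and *Arhgap29* (0.95), *Il6st* by *Tln2* (0.80) and *Laptm4b* (0.80), and *Tnfrsf1a* by *Itm2b* (0.92), *Cd81* (0.87), and *Nucb1* (0.85). Among the 10 themselves, r was 0.78 for *Lcn2* with *Ptgs2*, 0.73 for *Lcn2* with *Lrg1*, and 0.72 for *Lrg1* with *Il1r1*, and 0.07 or less for *Stat3* with each of these 4 genes.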

How the data were processed

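The authors deposited raw UMI counts per gene and cell for 6 libraries, 1 per mouse, made with Cell Ranger 7.0.0 against mouse mm10 with *Clec7a* and human *NOTCH3* sequences added, with cells called by Cell Ranger and no pooling. Counts of 3′ tags do not depend on transcript length, but levels were compared only within a gene.

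Cells with 500 to 4500 genes and under 10% mitochondrial counts were kept (44112 of 49059). Clustering used 2000 variable genes, 30 principal components, 20 neighbours, and Leiden resolution 1 (scanpy 1.11.5, leidenalg 0.10.2, Python 3.11.15), without the 10 genes and their pathway lists. Classes were named from marker lists where at least 3 markers were detected, with 1234 cells unnamed, and the criteria for leaving a cluster unnamed were adjusted after the clusters were seen, as was the choice of the *Ackr1*-high subcluster. Rebuilt names may differ from those of the study. Left out were 5553 endothelial cells in which *Cx3cr1* or *Aif1* was detected. Scrublet marked 103 of 44112 cells (0.233%), so doublets were not removed. Cell barcodes found in more than 1 library numbered 283. The 10 genes, the lists, and the named genes (the 10, listed ligands, partners and targets, list genes called between genotypes, and the 3 genes most correlated with each) were chosen with earlier results of these data known. The third gene that followed *Il6st* is not reported here.

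Counts were summed per mouse and class with at least 20 cells. Genotypes were compared with the quasi-likelihood test of edgeR 4.0.16 (R 4.3.3, TMM normalization, filterByExpr, mitochondrial, ribosomal, Rik, and pseudogene symbols left out, Benjamini-Hochberg adjustment, threshold 0.05), tested on simulated data. The SE of a fold change is its size divided by the root of the F value. The replicate is the mouse, and p-values measure the spread between 3 mice per genotype. Intervals, floors (3 UMIs), and limits for a count of 0 cover counting error only. Alternatives were DESeq2 1.42.0, RLE size factors, no filter, a replicate block, leaving out each mouse, stricter cells, resolution 2, the pathway genes kept in the clustering, cells with microglial UMIs kept, and other thinning. Deviations of same-numbered mice from their genotype mean had correlations of 0.148, 0.108, and 0.326 in venous-like and 0.111, 0.153, and 0.34 in arterial-like cells. In microglia-like cells the correlations were 0.229, 0.168, and 0.38. The numbers were taken as pairs for the replicate block, from the data and not from the labels. Only in microglia-like cells did each WT mouse correlate best with the same-numbered ArcSwe mouse. WT replicate 1 correlated best with ArcSwe replicate 2 in venous-like and arterial-like cells, so calls with the block there rest on an uncertain pairing. In capillary-like (0.019 to 0.22) and mural cells (0.032 to 0.402) the correlations did not all pass 0.1.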

Additional observations from a re-analysis of the deposited data

Results flagged for a closer look

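The genotype effect differed between venous-like and capillary-like cells for 7 of 11599 genes in the test of the difference itself (edgeR, mouse as a block, adjusted p under 0.05). They were *Cd14*, *H2-Q6*, *H2-Q7*, *Ifnb1*, *Nckap5*, *Tnfaip3*, and *Vcam1*, all with negative values, and are named after their values were seen, other than *Tnfaip3*. The count was 4 without WT replicate 2, WT replicate 3, or ArcSwe replicate 3, and 17 without ArcSwe replicate 2. *Vcam1* is among the markers used to name venous-like cells. *Nckap5* and *Vcam1* were also among the genes whose levels followed *Il1r1* and *Ptgs2*.

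For *Tnfaip3* the difference was -0.75 ± 0.14 (SE, adjusted p = 0.0462 in edgeR), from a fold change of 0.255 ± 0.25 in venous-like and 1.01 ± 0.28 in capillary-like cells, neither of which was called. The call was lost in 4 of 6 fits that left out 1 mouse, and over 12 alternatives the value ran from -0.89 to -0.46 (adjusted p 3.4e-06 to 1). Capillary-like cells of ArcSwe replicate 3 came largely from subclusters with few cells of other mice, and the value without that mouse was -0.55 (adjusted p = 0.257 in edgeR). The part of these subclusters was not tested.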

How the results depend on the processing

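Counts of genes called between genotypes moved with the test, the filter on low counts, and the block. DESeq2 called 3 genes in venous-like, 6 in capillary-like, 23 in arterial-like, and 94 in microglia-like cells. With no filter on low counts the numbers were 53, 12, 158, and 91, with 2 in mural, 36 in vein-like cells, and 46 for the difference between zones. The replicate block called 1, 2, 9, and 65 genes in the same 4 classes and 1 in vein-like cells, and changed no call of the 10 genes. Microglia-like calls numbered 57 with stricter cells and 2 at resolution 2, and the difference between zones was called for 4 genes at resolution 2 and 3 with microglial UMIs kept. Leaving out a mouse gave 0 to 3 calls in arterial-like cells, 0 to 43 in microglia-like cells, and 4 to 17 for the difference between zones. The interaction already holds the mouse as a block.

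Of the fold changes of the 10 genes, 413 of 427 values under other settings and 295 of 324 with a mouse left out kept their direction and their side of the threshold. Signs changed for *Nfkbia* with the replicate block in capillary-like (0.035) and microglia-like cells (0.011); with stricter cells for *Ptges* (0.86) and *Il6st* (-0.021) in mural cells, *Il6st* (0.022), *Tnfrsf1a* (0.025), and *Nfkbia* (0.24) in microglia-like cells, and *Osmr* (-0.011) in vein-like cells; at resolution 2 for *Ptges* in mural cells (0.84); with DESeq2 (0.011) and RLE (0.014) for *Il6st* in microglia-like cells; and with microglial UMIs kept for *Ptges* in vein-like cells (-0.10). *Stat3* in arterial-like cells was called with DESeq2 (0.48) and with no filter (0.47), as was the *Il1r1* difference between zones with no filter (-0.40). The *Tnfaip3* difference lost its call with stricter cells (-0.50), at resolution 2 (-0.46), with pathway genes kept (-0.56), and with microglial UMIs kept (-0.46), and ran from -0.89 to -0.55 with a mouse left out.

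With a mouse left out, ranges crossed 0 in venous-like cells for *Lcn2* (-0.42 to 0.64), *Lrg1* (-0.20 to 0.88), *Il1r1* (-0.48 to 0.15), *Ptgs2* (-0.21 to 0.45), *Ptges* (-0.035 to 0.26), *Il6st* (-0.043 to 0.13), and *Nfkbia* (-0.45 to 0.19). In vein-like cells they did so for *Lrg1* (-0.033 to 0.62), *Il1r1* (-0.45 to 0.011), *Osmr* (-0.11 to 0.40), and *Nfkbia* (-0.61 to 0.17). Elsewhere they did so for *Lcn2* in capillary-like cells (-0.29 to 0.79), *Il1r1* in mural cells (-0.21 to 0.0071), *Il6st* in microglia-like cells (-0.082 to 0.087), and *Nfkbia* in capillary-like (-0.22 to 0.24), arterial-like (-0.026 to 0.38), mural (-0.18 to 0.30), and microglia-like cells (-0.63 to 0.11). The cause was not tested.

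The venous-like minus capillary-like log2 differences stayed above 0 under every alternative. They moved by more than their spread at resolution 2 (*Lcn2* 4.35, *Ptges* 0.98, *Stat3* 0.29), with microglial UMIs kept (*Lcn2* 4.29, *Il1r1* 2.20, *Stat3* 0.65, *Nfkbia* 1.28), and with pathway genes kept (*Osmr* 0.65). Vein-like cells in place of all venous-like cells gave 6.75, 7.87, 3.84, 5.39, 1.105, 0.67, 1.06, 1.75, 1.30, and 1.26 for *Lcn2*, *Lrg1*, *Il1r1*, *Ptgs2*, *Ptges*, *Stat3*, *Osmr*, *Il6st*, *Tnfrsf1a*, and *Nfkbia*. Without the venous-like subcluster high in immediate early genes, and with capillary-like cells unchanged, the values were 5.91, 3.425, 4.53, 0.26, 0.65, 1.37, 0.91, and 0.70 for *Lcn2*, *Il1r1*, *Ptgs2*, *Stat3*, *Osmr*, *Il6st*, *Tnfrsf1a*, and *Nfkbia*. Both settings and the fit of vein-like cells were chosen after seeing the data. Genotype differences in the share of venous-like cells with a UMI changed sign for *Lrg1* without thinning (-0.81 points), and at 2000 UMIs and without thinning for *Ptges* (0.087 and 1.73) and *Osmr* (3.00 and 5.95). Removal of doublets was not run, since Scrublet marked 0.233% of cells. With 46 vein-like cells in ArcSwe replicate 2, low genes there rest on few UMIs.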

Other observations

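*Lcn2* had a second site outside the named classes. A cluster of 307 cells with markers of several myeloid cell types, left unnamed, held 984 *Lcn2* UMIs, of which 976 lay in 12 cells with at least 3 UMIs of the neutrophil gene *S100a8*. Of these cells, 6 were from WT replicate 3 (691 UMIs), 5 from ArcSwe replicate 3 (285 UMIs), and 1 from ArcSwe replicate 1 (0 UMIs). They also carried 3749 UMIs of *Camp* and 2652 of *Ngp*, genes of neutrophil granules, and the whole cluster held 24 *Lrg1* UMIs. WT replicate 3 and ArcSwe replicate 3 also had the highest *Lcn2* levels in B cells (9.71 and 13.6 CPM, with 0 UMIs in the other 4 mice), and their part in the venous levels was not tested.

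A venous-like subcluster of 33 cells led by interferon-induced genes such as *Cxcl10* and *Ifit2*, of which 17 were from ArcSwe replicate 3, held *Lcn2* at 84.9 CPM and *Ptgs2* at 232 CPM over all mice, between the levels of vein-like and other venous-like cells. These genes were named after their values were seen.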
